A study of Arabidopsis thaliana with 6 samples.

Results

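The probe sets described here are the 150 with the lowest ID numbers on the ATH1 array, out of 22746 tested. They form an unbroken block that holds transcripts of the mitochondrial and chloroplast genomes. Members were chosen by ID number alone, whether or not a gene was named for them. Of the 150, 77 were named for genes of the plastid genome, 13 for genes of the mitochondrial genome (12 for 1 gene each and 1 listed for both rps3 and rpl16) and 15 for nuclear loci on chromosome 2, and 45 carried no gene name. Of the nuclear loci, 10 (AT2G26360 to AT2G26630) lay in 1 stretch of 20 members, IDs 245027 to 245046, in which the other 10 were unnamed. The label of organelle transcripts therefore did not hold for the named members of that stretch, and it is described apart. The remaining 5 nuclear loci have AT2G07 codes.

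The groups were roots of hydroponically grown Col-0 Arabidopsis thaliana from 3 jars dosed with 0.125 mM KAuCl4, a soluble gold(III) salt, at pH 5.7, and from 3 jars without gold. Plants of both groups were grown for 14 days in sealed jars, and the jars are the replicates, with 1 array each. The sample labels give 24 h of exposure and the treatment protocol gives 6 h, so the time is not settled. For the jars without gold, the labels say untreated whereas the design text says water. The deposited log2 values are centred on each probe set's median over the 6 arrays, so every value below is a difference from that median and not a level. Whether the roots carried any shoot tissue could not be judged from levels, and in such bulk samples fewer cells of a type cannot be told apart from less RNA per cell.

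Plastids and mitochondria keep small genomes of their own, which encode core subunits of the photosynthetic and respiratory complexes together with part of the organelles' gene expression machinery. The other subunits are nuclear. Plastid genes are read by a bacterial-type RNA polymerase, whose subunits the rpo genes encode, and by a phage-type nuclear polymerase, while mitochondrial genes are read by phage-type enzymes alone. Most of these RNAs lack the stable poly(A) tail of nuclear messengers, and in organelles a poly(A) tail marks RNA for decay. How evenly the labelling kit captured such RNAs was not tested.

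In all 5 pairs of control probe sets, the 5′ signal relative to the 3′ signal was lowest on no gold replicate 1. The differences (5′ minus 3′, log2) were -4.89 and -0.26 for the pairs for actin, -2.55 and -4.70 for those for GAPDH and -0.87 for ubiquitin. In the same order, the lowest values on the other 5 arrays were -1.02 and -0.203, -0.21 and -0.59, and -0.285. The second pair for actin thus differed little. The other 5 arrays ranged from -1.02 to 0.54 over all pairs. Counts and changes are therefore given with and without that array.

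Organelle genes named in the block showed almost no change with gold that passed the test. Of the 90 members named for a plastid or mitochondrial gene, 1 rose, none fell and the rest did not pass (limma with Benjamini-Hochberg adjustment over all probe sets, adjusted p below 0.05). The gene that rose was psbL, for a small subunit of photosystem II. Over all probe sets tested, 20.2% passed, 9.32% higher and 10.9% lower. Of the whole block, 8 of 150 (5.33%) passed, 4 higher and 4 lower, and 7 of these 8 lay in the stretch with nuclear loci. Without no gold replicate 1, 2 of the 90 rose and none fell, while 21.4% of all probe sets passed (9.46% higher, 11.9% lower).

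**Figure D1:**
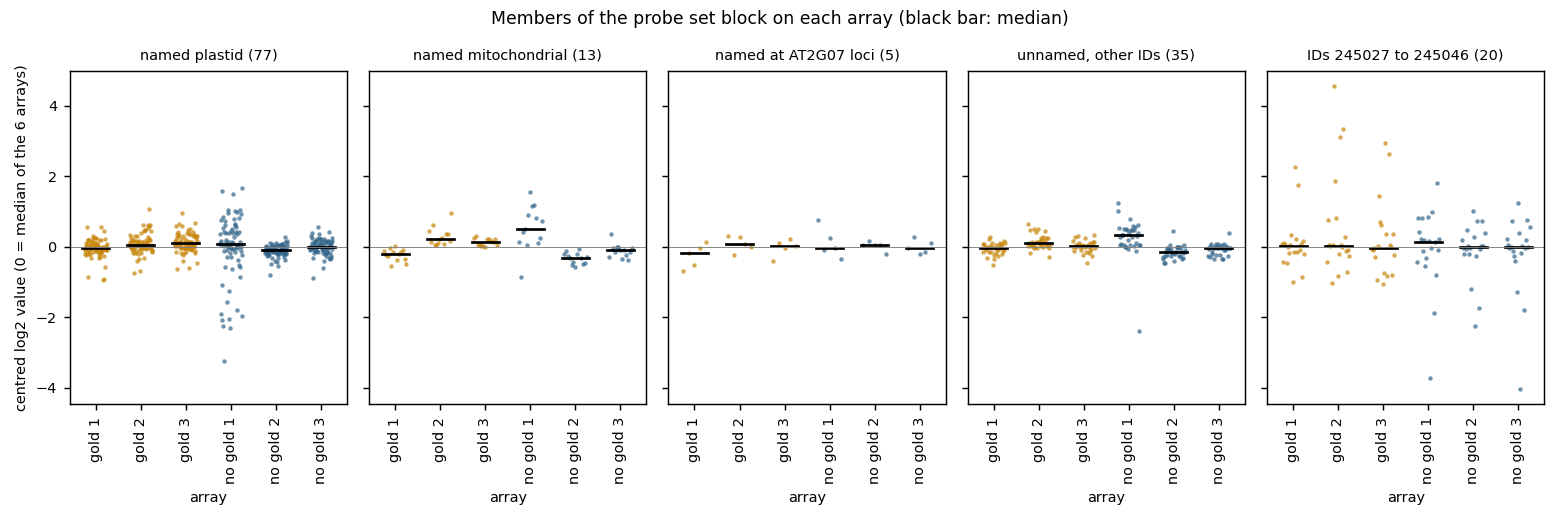
Centred log2 value (vertical axis) of each member on each array (horizontal axis, gold in ochre and no gold in blue), in 5 panels by gene name and ID, with the median as a black bar. Plastid values spread over -3.26 to 1.67 on no gold replicate 1, while the widest changes between gold and no gold lie in the panel of IDs 245027 to 245046.

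The median of the plastid members lay close to 0 on every array. It was -0.03, 0.03 and 0.09 on gold replicates 1 to 3, against 0.09, -0.11 and -0.01 on no gold replicates 1 to 3. Their median change, gold minus no gold, was 0.08 on the log2 scale, against -0.04 for all probe sets tested, and it was again 0.08 without no gold replicate 1, against -0.01 for all. For 51 of the 77 (66.2%; 65.6% of all probe sets), the 95% interval of the change lay within 2-fold in either direction. Without no gold replicate 1 it did so for 69 of the 77 (89.6%; 68.0% of all). The groups did not overlap in 5 of the 77 (6.49%), against 37.2% of all probe sets. Gold lay above in 3, psbF, psbL and rps2 (15.6% of all probe sets), and below in 2, psbI and ndhB (21.6% of all).

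Photosystem II, the complex that splits water, gave the plastid call. PsbL had centred log2 values of 0.23, 0.18 and 0.29 on gold replicates 1 to 3, against -0.58, -0.39 and -0.18 on no gold replicates 1 to 3. The gold arrays lay close together and all above the no gold arrays, of which no gold replicate 1 was the lowest. The change was 0.62 ± 0.16 (SE, n = 3 and 3; limma adjusted p = 0.0312), or 0.52 ± 0.14 without no gold replicate 1 (limma adjusted p = 0.0433). It no longer passed without any 1 of gold replicates 1, 2 and 3 or no gold replicate 2 (limma adjusted p from 0.0624 to 0.132).

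In the plastid genome psbL stands in a row with psbJ, psbF and psbE, which are transcribed together and encode other small subunits of photosystem II, psbE and psbF those of cytochrome b559. PsbE was at 0.19, -0.18 and 0.63 on gold replicates 1 to 3, against -3.26, -0.11 and 0.11 on no gold replicates 1 to 3. Its change of 1.30 ± 0.81 (limma adjusted p = 0.338) was 0.21 ± 0.25 without no gold replicate 1 (limma adjusted p = 0.579), so that array made most of it. PsbF was at 0.20, 0.06 and 0.41 with gold, against -2.25, -0.15 and -0.06 without gold. Its change was 1.04 ± 0.54 (limma adjusted p = 0.239), and 0.32 ± 0.16 without no gold replicate 1. PsbJ had a change of 0.30, and of 0.43 without that array, and did not pass in either fit. On no gold replicate 1 the values along the row were -3.26 for psbE, -2.25 for psbF, -0.58 for psbL and 0.13 for psbJ. The part of RNA quality in this order was not tested.

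**Figure D2:**
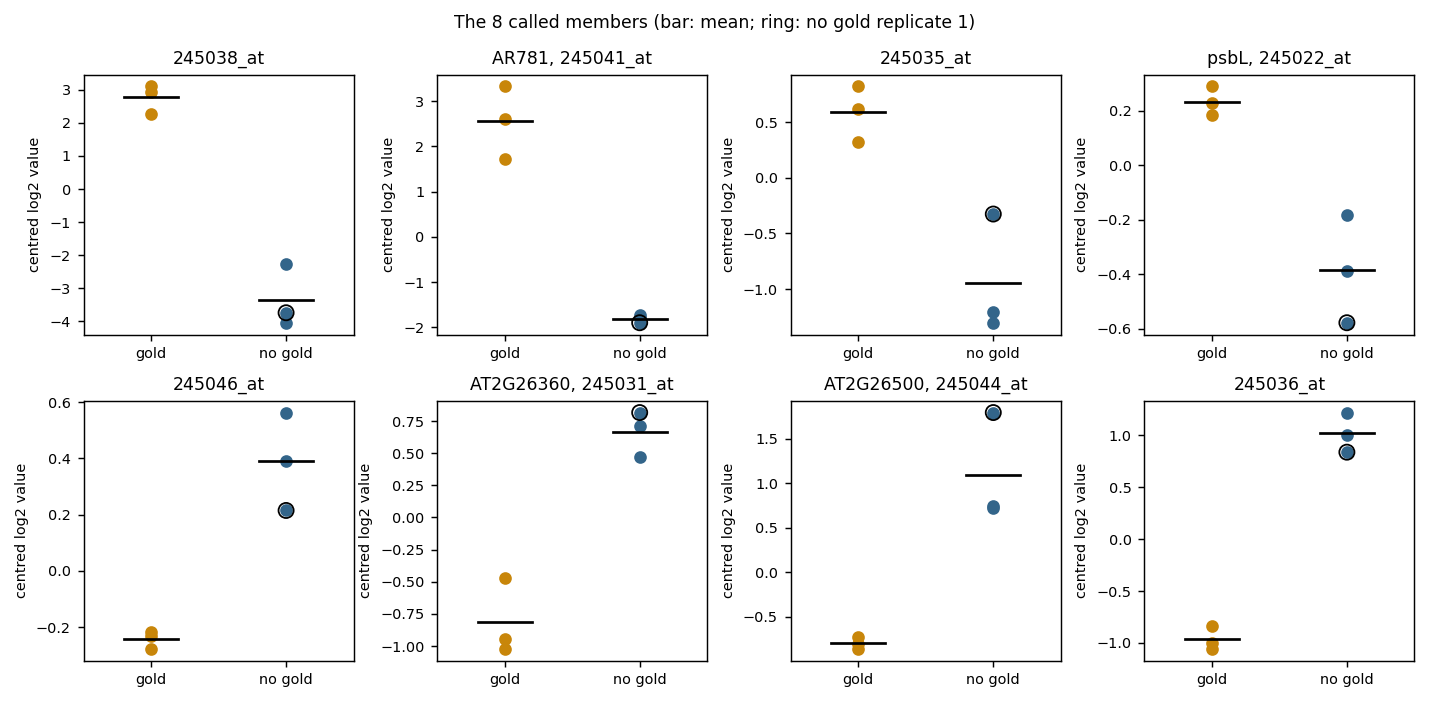
Centred log2 values (vertical axis) of the 8 members that passed the test, a panel each, with gold arrays at the left, no gold arrays at the right, the group mean as a bar and no gold replicate 1 ringed. The groups do not overlap in any of the 8, against 37.2% of all probe sets tested without overlap. The 8 were picked by a test on these same values, so this adds no support. The vertical scales differ, from a change of 0.62 for psbL to 6.12 for 245038_at.

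The other photosystem II genes, the reaction centre genes psbA and psbD among them, did not pass. PsbA, which encodes the D1 protein, had a change of 0.02 ± 0.34, or of 0.42 ± 0.19 without no gold replicate 1 (limma adjusted p = 0.170). Over the 15 members of this class the changes ran from -0.52 for psbI to 1.30 for psbE. Without no gold replicate 1 they ran from -0.20 to 0.52, so the spread among them was narrower.

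Photosystem I, cytochrome b6f and the plastid ATP synthase had no call in either fit. In photosystem I the member farthest from 0 was psaJ, for a small subunit, at -0.47 ± 0.24 (limma adjusted p = 0.236), and psaB, for a core protein, was at 0.28 ± 0.24. All 6 cytochrome b6f genes had a positive change, from 0.08 for petA to 0.80 for petB. All 6 kept a positive one without no gold replicate 1, from 0.13 to 0.41. Of all plastid members, 62.3% had a positive change, and 72.7% without that array (44.6% and 48.7% of all probe sets tested). PetB encodes cytochrome b6. It was at -0.04, 0.30 and 0.57 with gold, against -1.58, -0.01 and 0.01 without gold, and its change was 0.28 without no gold replicate 1. PetD, for subunit IV, was at 0.23 ± 0.16, and at 0.32 without that array (limma adjusted p = 0.423 and 0.179). AtpB, for the beta subunit of the ATP synthase, was at 0.55 ± 0.47 over all arrays and at -0.07 ± 0.14 without no gold replicate 1, where its value was -1.80. AtpA, for the alpha subunit, was at 0.52 ± 0.40 and at 0.23 ± 0.40 without that array.

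Nuclear photosynthesis genes were counted beside them, in a list that holds subunits of these complexes, light-harvesting proteins and, with PRK and RCA, proteins of carbon fixation. Of 38 nuclear photosynthesis genes listed as markers of green tissue, 6 had a probe set named for them alone: 5 fell and PRK did not pass, with a median change of -1.53 (-1.57 without no gold replicate 1, again 5 lower). Of all probe sets tested, 10.9% fell, with a median change of -0.04 (11.9% and -0.01 without no gold replicate 1). The mean centred value of the 6 genes ranged from -0.91 to -0.50 over the gold arrays, against 0.60 to 1.18 over the no gold arrays. ATPC1, the gamma subunit of the plastid ATP synthase, fell by 1.88 ± 0.16 (limma adjusted p = 0.000190), PSAE-1 of photosystem I fell by 1.57 ± 0.35, PSAN of photosystem I fell by 1.56 ± 0.26 and the activase of Rubisco, RCA, fell by 1.49 ± 0.23. LHCB4.1, a light-harvesting protein, was the remaining gene that fell (-1.16 ± 0.20). The 32 plastid members of the photosystems, cytochrome b6f and ATP synthase had a median change of 0.13, with 1 higher and none lower, and 0.19 without no gold replicate 1. The difference between nuclear and plastid genes was not tested.

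**Figure D3:**
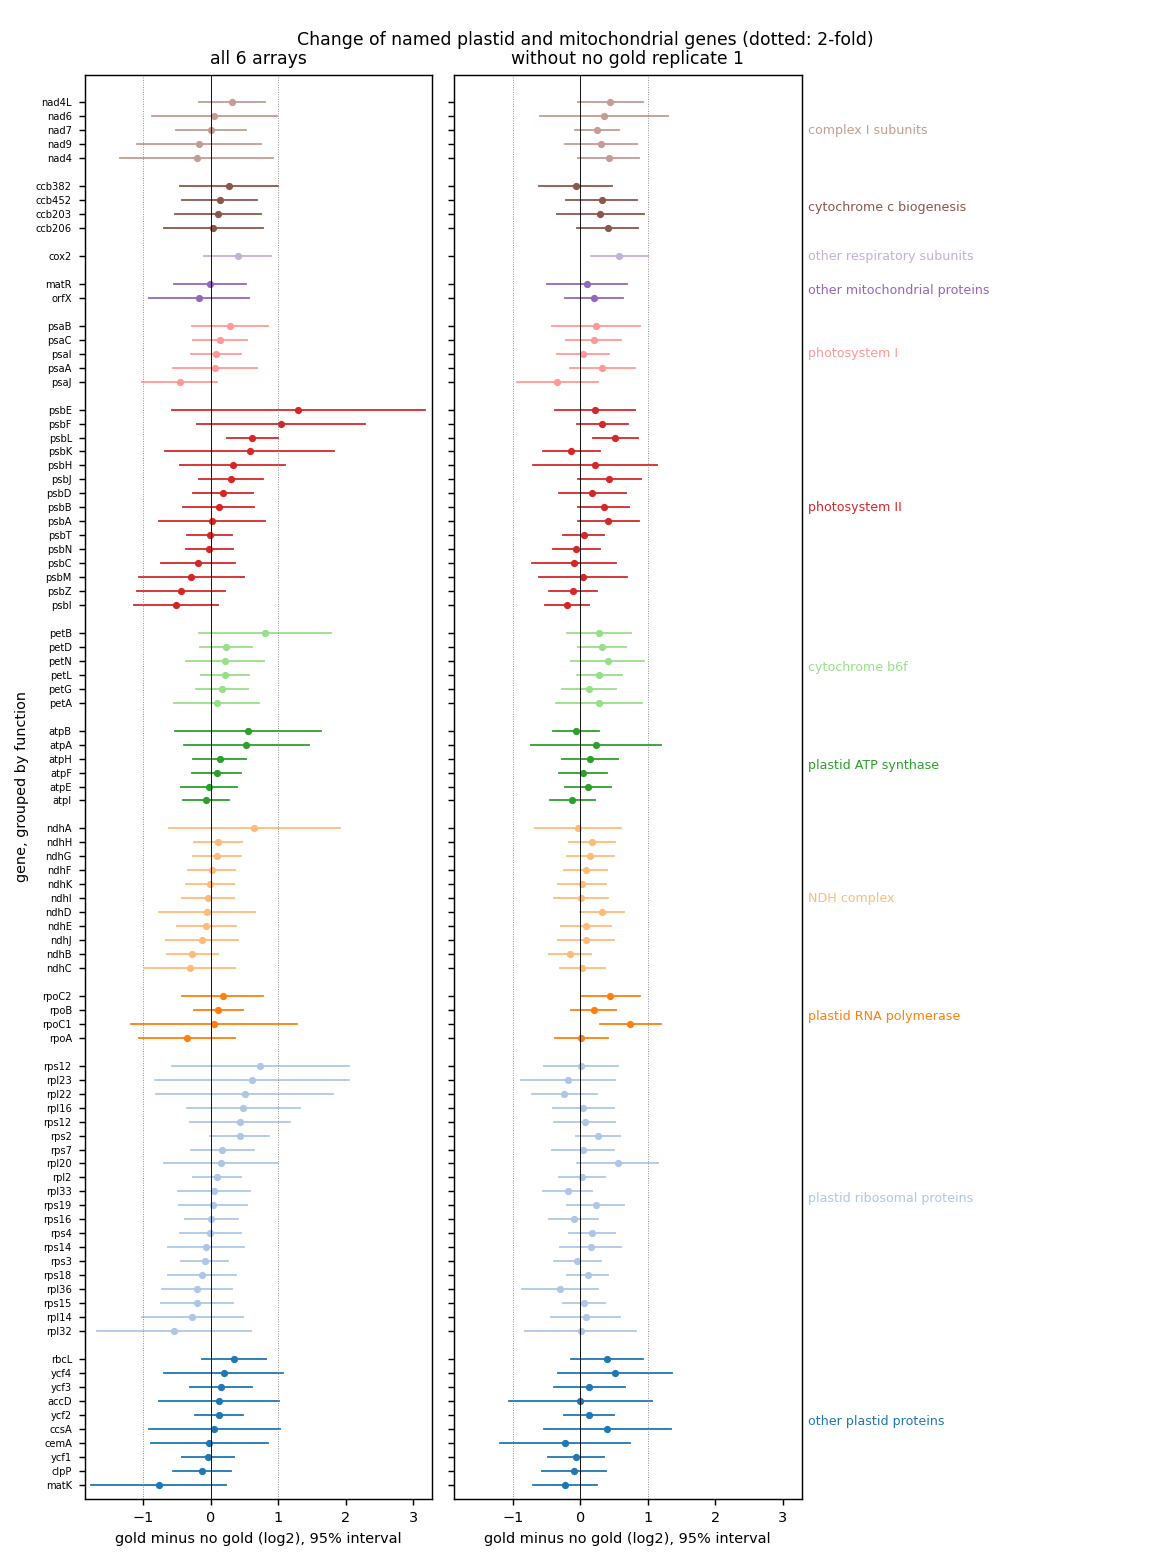
Change with gold on the log2 scale (horizontal axes, gold minus no gold, points, with 95% intervals as bars) of each plastid and mitochondrial member named for 1 gene, grouped by function down the page, over all 6 arrays at the left and without no gold replicate 1 at the right. The mitochondrial probe set listed for both rps3 and rpl16 is not shown. Dotted lines mark 2-fold; the intervals of psbE, psbF, petB, ndhA and rps12 are wide at the left and narrower at the right.

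The plastid NDH complex, which passes electrons back into the photosynthetic chain, had 11 members and no call. Its median change was -0.04, and 0.08 without no gold replicate 1. NdhA was at -0.25, 0.00 and 0.59 on gold replicates 1 to 3, against -1.91, 0.00 and 0.30 on no gold replicates 1 to 3. Apart from the value on no gold replicate 1 the groups overlapped, and the change of 0.65 ± 0.55 became -0.04 ± 0.26 without that array. NdhC was at -0.31 ± 0.29, and at 0.03 ± 0.14 without it.

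Of the 4 genes for the plastid's own RNA polymerase, none passed over all arrays. RpoC1 had values of 0.02, -0.02 and 0.47 with gold, against 1.501, -0.56 and -0.62 without gold, so no gold replicate 1 lay far above the other no gold arrays. Its change was 0.05 ± 0.53 (limma adjusted p = 0.970) over all arrays. Without no gold replicate 1 it rose by 0.74 ± 0.19 (limma adjusted p = 0.0346), the only alternative of 13 in which it passed. RpoC2 was at 0.18 ± 0.26, and at 0.45 ± 0.18 without that array (limma adjusted p = 0.140). RpoA was at -0.35 ± 0.31 and at 0.02 ± 0.16, and rpoB at 0.11 and 0.20. Among nuclear genes for organelle transcription, AT5G15700, which encodes the polymerase RPOTmp, was the only one of 9 listed with a probe set named for it alone, at 0.14 ± 0.17 (limma adjusted p = 0.675). Of the 14 listed proteins associated with the plastid polymerase, none had a probe set named for it alone, so they were not measured.

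Plastid ribosomal protein genes, 20 members, had changes from -0.55 (rpl32) to 0.73 (rps12) and no call. Both probe sets for rps12 were low on no gold replicate 1. The more affected, 244940_at, was at -0.16, 0.15 and 0.36 with gold, against -2.08, -0.15 and 0.38 without gold. Its change was 0.73 ± 0.56, and 0.01 ± 0.23 without no gold replicate 1. Rpl23 was at 0.11, -0.69 and 0.20 with gold, against -2.31, -0.11 and 0.21 without gold, with changes of 0.61 and -0.18. Rps2 was at 0.43 ± 0.19 with groups that did not overlap (limma adjusted p = 0.164). Its value on no gold replicate 1 was the lowest, at -0.65, and its change was 0.26 ± 0.14 without that array (limma adjusted p = 0.230).

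The last group of plastid genes includes those for Rubisco's large subunit, a maturase, a protease subunit, a fatty acid synthesis subunit and assembly factors. RbcL, the large subunit of Rubisco, had values of -0.08, 0.61 and 0.29 with gold, against 0.04, -0.21 and -0.04 without gold. The groups overlapped through gold replicate 1, and the change was 0.34 ± 0.21 (limma adjusted p = 0.318), or 0.39 ± 0.22 without no gold replicate 1. MatK, the plastid intron maturase, was at 0.07, -0.15 and -0.48 with gold, against 1.67, 0.15 and -0.07 without gold. Its change of -0.77 ± 0.43 was -0.23 ± 0.20 without no gold replicate 1. Among the 10 members of this group none passed in either fit.

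Genes of the mitochondrial genome gave no call. Of the 13 members, limma found 0 changed over all arrays, 0 at an unadjusted p below 0.05 (31.8% of all probe sets) and 0 under any of the 13 alternatives, including the ordinary test per probe set. Their median was -0.22, 0.22 and 0.14 on gold replicates 1 to 3, against 0.50, -0.32 and -0.10 on no gold replicates 1 to 3. The highest and the lowest median were both on no gold arrays. The median change was 0.04, with 8 of 13 positive (44.6% of all probe sets tested), and 0.31 without no gold replicate 1, with 12 of 13 positive (48.7% of all). The sign of 6 of the 13 changes thus turned on that array. The 95% interval of the change lay within 2-fold for 10 of the 13, and for 11 without that array. The probe set listed for the ribosomal protein genes rps3 and rpl16 had the lowest change of the 13, -0.32 ± 0.34, and one of 0.11 without that array.

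Complex I, the entry point of the respiratory chain, had 5 of these members, and no gold replicate 1 was the highest array for 3 of them. Nad4 was at 0.01, 0.22 and -0.01 with gold, against 1.55, -0.59 and -0.10 without gold. Its change was -0.21 ± 0.49 (limma adjusted p = 0.846), and 0.42 ± 0.19 without no gold replicate 1 (limma adjusted p = 0.167). Nad4L was at -0.14, 0.45 and 0.23 with gold, against 0.14, -0.21 and -0.31 without gold, with changes of 0.31 ± 0.21 and 0.45 ± 0.20. Over the 5 members the changes ran from -0.21 to 0.31, and from 0.25 to 0.45 without that array.

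Cox2, for a core subunit of cytochrome c oxidase, had the largest positive change of the 13 in both fits. It was at -0.10, 0.37 and 0.14 with gold, against 0.10, -0.50 and -0.39 without gold. The change was 0.40 ± 0.21 (limma adjusted p = 0.254), and 0.58 ± 0.18 without no gold replicate 1 (limma adjusted p = 0.0620), the only mitochondrial member with an unadjusted p below 0.05 in that fit (35.2% of all probe sets). The 4 genes for cytochrome c biogenesis, which attaches haem to the protein, ranged from 0.04 (ccb206) to 0.27 (ccb382). Ccb382 was at -0.25, 0.12 and 0.30 with gold, against -0.88, -0.12 and 0.36 without gold, and was the only one of the 13 that was negative (-0.07) without no gold replicate 1. Ccb452 was at 0.13 ± 0.24, and at 0.32 without that array. OrfX, for a protein of the twin-arginine transport type, was at -0.17 ± 0.32 and matR, an intron maturase, at -0.01 ± 0.23, with changes of 0.20 and 0.10 without that array.

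Nuclear genes for the mitochondrial respiratory chain and ATP synthase were measured for 21 of 39 listed: 1 rose, none fell and 20 did not pass, with a median change of 0.03. Of all probe sets tested, 9.32% rose and 10.9% fell. Without no gold replicate 1 the counts of the 21 were the same and their median was -0.20, while 9.46% of all rose and 11.9% fell. The gene that rose was CYTC-2, for cytochrome c, at 0.20, 0.69 and 0.77 with gold, against -0.20, -0.49 and -0.69 without gold. Its change was 1.01 ± 0.21 (limma adjusted p = 0.0129), and 1.14 without no gold replicate 1 (limma adjusted p = 0.0111). Of the 3 listed nucleases of organelle RNA decay, AT5G14580, the mitochondrial polynucleotide phosphorylase, was measured. It was at -0.83 ± 0.29 (limma adjusted p = 0.0883), and fell by 1.13 without no gold replicate 1 (limma adjusted p = 0.0134).

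The 5 members at AT2G07 loci come from a part of chromosome 2 that carries a nuclear copy of mitochondrial DNA, and 4 of them have an ID suffix for sequence shared with other transcripts. Their signal and that of the mitochondrial genes cannot be told apart by name. None passed, with changes from -0.53 (AT2G07751) to 0.20 (AT2G07708), 0 at an unadjusted p below 0.05 and 0 under the other tests run. The 35 unnamed members outside the stretch of nuclear loci also had no call under any setting. Their changes ran from -0.34 to 0.71, with a median of 0.01, and 0 had an unadjusted p below 0.05, against 31.8% of all probe sets (1 without no gold replicate 1, against 35.2% of all). The lowest value among them on no gold replicate 1 was that of 244979_at, at -2.40.

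**Figure D4:**
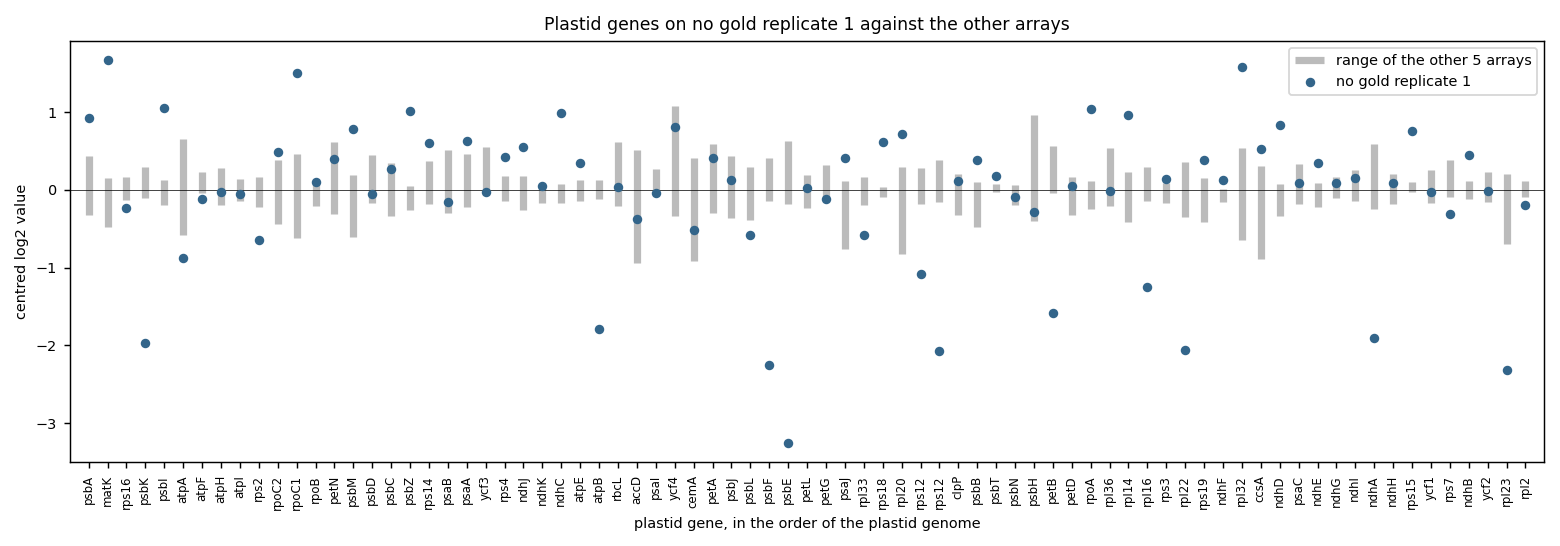
Centred log2 value (vertical axis) of the 77 plastid probe sets on no gold replicate 1 (points) and the range of the other 5 arrays (grey bars), with genes in their order in the plastid genome (horizontal axis) and duplicated genes at 1 of their copies. On no gold replicate 1, 11 probe sets lie below -1 and 6 above 1; psbE, at -3.26, is the lowest.

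No gold replicate 1 stood apart in both directions. Among the 77 plastid members it was the lowest of the 6 arrays in 20 (26.0%; 19.0% of all probe sets tested) and the highest in 29 (37.7%; 33.1% of all). Next in these counts were no gold replicate 2, the lowest in 18 (23.4%; 17.2% of all), and gold replicate 3, the highest in 19 (24.7%; 11.8% of all). The SD over the plastid members was 0.95 on no gold replicate 1, against 0.17 to 0.28 on the other 5. Over all probe sets tested the SD was 0.61 on that array, against 0.37 to 0.72 on the other 5. Gold replicate 2 had the highest SD there and was the lowest array in 27.2% of all probe sets. Plastid values below -1 there were those of psbE, rpl23, psbF, rps12 (both sets), rpl22, psbK, ndhA, atpB, petB and rpl16. Values above 1 were those of matK, rpl32, rpoC1, psbI, rpoA and psbZ. Only 1 plastid member, ycf4, had a value beyond 1 in either direction on any other array, at 1.08 on gold replicate 2.

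Low and high genes stood side by side in the plastid genome. PsbK was at -1.97 and its neighbour psbI at 1.05. In the ribosomal protein cluster rpl22 was at -2.06 and rpl16 at -1.25, whereas rps3, which lies between them, was at 0.13 and rps19, next to rpl22, at 0.39. The mitochondrial members had no value below -1 on that array, and were the highest of the 6 arrays there in 8 of 13 (61.5%). The part of RNA quality in these values was not tested. Leaving the array out lowered the median standard error of the plastid changes to 0.17, against 0.23 with it, and that of the mitochondrial changes to 0.20, against 0.31. It changed the sign of 24 of the 77 plastid changes.

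**Figure D5:**
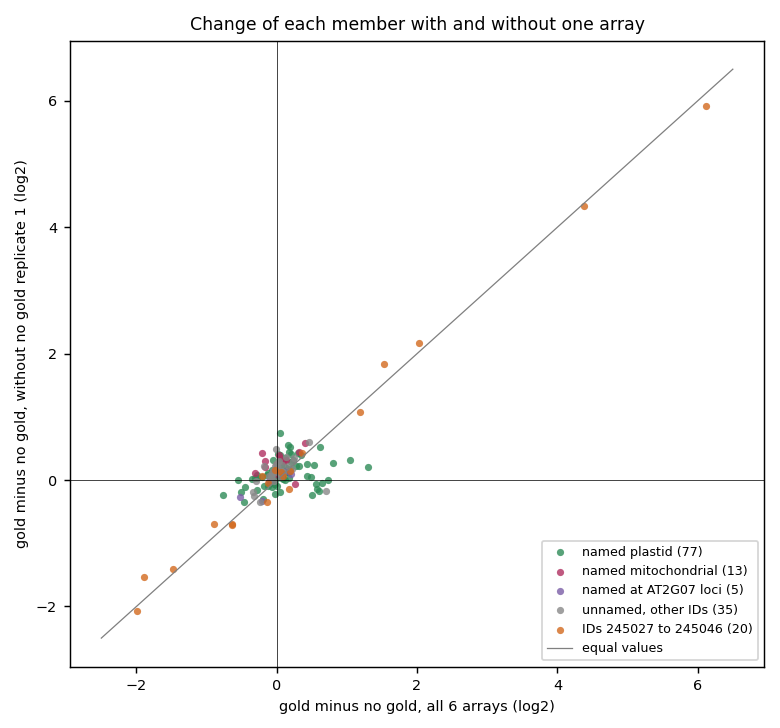
Change with gold (gold minus no gold, log2) of each of the 150 members over all 6 arrays (horizontal axis) and without no gold replicate 1 (vertical axis), coloured by gene name and ID, with a line of equal values. Members of IDs 245027 to 245046 lie near the line out to 6.12, while plastid members spread along the horizontal axis, psbE the farthest, at 1.30 over all arrays and 0.21 without that array.

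The stretch of 20 members with nuclear loci held 7 of the block's 8 calls, of which 3 rose and 4 fell. These 7 were 35.0% of the stretch, against 20.2% of all probe sets tested. Without no gold replicate 1 the counts were the same, against 21.4% of all. The groups did not overlap in 11 of the 20 (55.0%; 37.2% of all). The largest change was that of 245038_at, which carries no gene name here. It was at 2.26, 3.10 and 2.94 with gold, against -3.74, -2.26 and -4.04 without gold, a rise of 6.12 ± 0.46 (limma adjusted p = 0.000116). It passed under all 13 alternatives (limma adjusted p up to 0.0207).

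AR781 (AT2G26530) was at 1.73, 3.33 and 2.62 with gold, against -1.90, -1.73 and -1.80 without gold. The no gold arrays were close together and far below the gold arrays, with a rise of 4.37 ± 0.36 (limma adjusted p = 0.000186). The unnamed 245035_at was at 0.33, 0.82 and 0.62 with gold, against -0.33, -1.20 and -1.30 without gold. It rose by 1.53 ± 0.28 (limma adjusted p = 0.00728).

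AT2G26500 is known to encode PetM, a small nuclear-encoded subunit of the plastid cytochrome b6f complex. It was at -0.86, -0.73 and -0.81 with gold, against 1.80, 0.73 and 0.74 without gold. It fell by 1.89 ± 0.29 (limma adjusted p = 0.00330), or by 1.53 ± 0.13 without no gold replicate 1 (limma adjusted p = 0.000700). The petA, petB, petD, petG, petL and petN genes of the same complex, in the plastid genome, did not pass.

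AT2G26360, a member of the mitochondrial substrate carrier family, was at -0.47, -1.02 and -0.95 with gold, against 0.82, 0.47 and 0.71 without gold. It fell by 1.48 ± 0.20 (limma adjusted p = 0.00175). The unnamed 245036_at was at -0.996, -0.84 and -1.06 with gold, against 0.84, 1.001 and 1.22 without gold. It fell by 1.98 ± 0.16 (limma adjusted p = 0.000188). The unnamed 245046_at fell by 0.63 ± 0.15 (limma adjusted p = 0.0247), and lost its call without any 1 of no gold replicates 2 and 3 or gold replicates 2 and 3 (limma adjusted p from 0.0715 to 0.1004).

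AT2G26380, a leucine-rich repeat protein gene, and AT2G26390, a serpin protease inhibitor gene, had uneven values among the gold arrays and did not pass. AT2G26380 was at -0.19, 4.56 and 1.42 with gold, against 0.19, -0.21 and -0.27 without gold, a change of 2.03 ± 1.02 (limma adjusted p = 0.224). AT2G26390 was at 0.03, 1.85 and 0.69 with gold, against -0.55, -0.03 and -0.40 without gold (1.18 ± 0.42; limma adjusted p = 0.0908). In both, gold replicate 2 was the highest and gold replicate 1 the lowest of the gold arrays, and both passed when gold replicate 1 was left out. AT2G26390 also passed after quantile normalization. Their changes were 2.17 and 1.07 without no gold replicate 1. AT2G26520 was at -0.16, -0.01 and -0.83 with gold, against 0.97, 0.71 and 0.01 without gold, groups that did not overlap (-0.90 ± 0.31; limma adjusted p = 0.0820). It passed when no gold replicate 3 was left out. The unnamed 245037_at was at -0.64 ± 0.20 (limma adjusted p = 0.0580) and passed when gold replicate 1 was left out. Without no gold replicate 1 the calls kept their direction, at 5.92 for 245038_at, 4.33 for AR781, 1.84 for 245035_at, -2.08 for 245036_at, -1.40 for AT2G26360 and -0.72 for 245046_at. YAB5, a YABBY transcription factor gene known from leaves, was at -0.02 ± 0.19.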

How the data were processed

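The authors deposited 1 table of log2 values for 22810 probe sets on 6 ATH1 arrays, centred on each probe set's median (within 5e-07 of 0); the base of the logarithm is read as 2, while their summarisation and scaling are not stated. Per the labels' protocols, RNA was amplified with the MessageAmp II-Biotin kit. Values were used as deposited, and 64 control probe sets were left out. The change, gold minus no gold, was tested over all 22746 others with limma 3.58.1 in R 4.3.3 (lmFit, eBayes, two-sided, Benjamini-Hochberg, 0.05), a procedure checked on simulated data. Members and lists were chosen with earlier results of these data known. Genes were named from GEO's platform annotation for 105 members; 92 matched TAIR10.1 by gene ID, and 13 mitochondrial ones by symbol, 1 of them through both of its 2 listed genes, so that it counts as mitochondrial but carries no single gene name. A pair of symbols repeated for the copies of 1 plastid gene counted as 1 name (8 probe sets). Named members were, by rule, the largest passing changes (8 in each direction) and the 2 largest per functional class; others were chosen after their values were seen. Listed nuclear genes counted as measured where a probe set named them alone. Jars are separate per the design text. An exact permutation test of 3 against 3 jars could not go below p = 0.1 (two-sided), so calls rest on the spread pooled over probe sets, and precision is limited by the 6 arrays. No sequence was used. Figures were made with Python 3.11.15 and matplotlib 3.10.9.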

Additional observations from a re-analysis of the deposited data

How the results depend on the processing

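For the block, 4 members rose and 4 fell. The rises were 2 with limma treat at 1.5-fold and 2 with the ordinary equal-variance test, and with named plastid or mitochondrial members only, a setting chosen after seeing the data, 1 rose and 0 fell. Leaving out each array gave 3 to 5 rises and 3 to 5 falls. The 1 plastid rise, psbL, was lost with the replicate block (limma adjusted p = 0.0706), with treat, with the ordinary test and with a minimum of 2-fold. Plastid rises numbered 0 to 2 over the fits that each leave out an array. The 2 were psbL and rpoC1, without no gold replicate 1. Plastid falls and mitochondrial calls were 0 throughout. The cause was not tested. The replicate block also ended the call of 245046_at (limma adjusted p = 0.0678) and brought AT2G26390 and AT2G26520 past the threshold (limma adjusted p = 0.0352 and 0.0235). Deviations from the group means correlated between same-numbered arrays at -0.11, -0.25 and 0.28, so the numbers are not shown to pair the jars. Treat ended the calls of 245035_at and 245046_at as well, and the ordinary test those of 245035_at and AT2G26500 (0.0801 and 0.0593). The median change of the block, 0.05, ranged from -0.05 to 0.13 with arrays left out. Array median centring, quantile normalization, robust empirical Bayes, control probe sets kept and sets of shared sequence left out kept each count within 1.5 times. Signal over background could not be judged from centred values.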
